A study of Bos taurus with 18 samples.

Results

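The collagen genes of the bovine epididymis were taken as all probe sets annotated to exactly 1 gene symbol made of COL, a number, A and a number. They were 42 of the 18010 genes that had such a probe set. The brightest probe set by its mean over the 18 arrays stood for each gene. 1 collagen, COL5A1, had 2 probe sets. By collagen class the members were 11 fibrillar collagens, 6 basement membrane collagens of type IV and 25 others, among them 8 fibril-associated collagens (FACIT), 5 beaded-filament collagens of type VI and 4 transmembrane collagens.

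The samples were pieces of caput, corpus and cauda epididymidis, the first, middle and last segments of the duct in which sperm mature and are stored. They came from the slaughterhouse and were snap-frozen. The donors were 6 sexually mature Holstein bulls aged 51 to 71 months, 3 of high and 3 of medium-low fertility. Fertility was the share of cows not returning for service by day 56, from 282 to 486 first inseminations. Each of the 6 groups (high fertility caput, corpus and cauda, and medium-low fertility caput, corpus and cauda) had 3 arrays, numbered 1 to 3. No treatment or genetic change was involved, and the labels do not say that an array number marks a bull. The 18 arrays came from 6 bulls, so the arrays of a segment comparison were not all from separate animals. The p-values measure the spread between these arrays. The main fit does not pair arrays by number, although same-numbered arrays mostly deviated together. Calls and counts with a block on the number are given at the end.

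Collagens are extracellular matrix proteins built from 3 chains wound into a triple helix, and many are trimers of different gene products. Fibrillar collagens assemble into the fibrils that give connective tissue its tensile strength, whereas type IV collagen forms the sheet-like network of basement membranes under epithelia and around muscle cells and vessels. In the epididymis both lie in the wall around the duct, where fibroblasts and smooth muscle cells are embedded. The smooth muscle coat of the duct thickens towards the cauda.

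Values are log2 signals of 1-colour Affymetrix arrays, so a difference of 1 is a doubling. Signals of different genes come from different probes and were not set against each other. A gene was called when the adjusted p of limma's moderated test was under 0.05, with the Benjamini-Hochberg adjustment over all 26773 probe sets. The segment comparisons set 6 arrays against 6, as the mean over both fertility groups, and the fertility comparisons set 3 against 3. Each sample was a whole piece of tissue, in which fewer cells of a type and less RNA per cell cannot be told apart.

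The segment labels matched the known segment markers. GPX5, a secreted peroxidase of the caput, lay between 13.4 and 14.1 in caput arrays and between 6.35 and 10.8 in corpus arrays. CD52, a sperm-coating glycoprotein made distally, lay between 13.3 and 13.5 in cauda and between 6.73 and 8.35 in caput. Arrays 1 and 2 of the medium-low caput stood apart from array 3 of their group. Over all probe sets they correlated with array 3 at 0.951 and 0.958 and with the high caput arrays at 0.949 to 0.956, and with each other at 0.981. Array 3 correlated with the high caput arrays at 0.987 to 0.990, as these did among themselves (0.989 to 0.990). Array 3 of the medium-low cauda also stood apart in the collagens described below. Results that use the caput are therefore also given without medium-low caput arrays 1 and 2, for the gene lists as counts. That setting leaves array 3 as the only medium-low caput array, so the medium-low caput mean then rests on it alone. Calls lost or gained there are a check only, and the shares of all probe sets called there are not given.

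The collagens were more often higher than lower outside the caput. Between cauda and caput, 16 of the 42 were higher in cauda and 3 were lower, where 17.2% of all probe sets were called higher and 15.1% lower. Their median difference was 0.19, against 0.03 over all probe sets. Between corpus and caput, 12 were higher in corpus and 1 was lower, where 19.5% of probe sets were called higher and 13.7% lower. The median was 0.24 against 0.06. Between cauda and corpus, 7 were higher and 5 lower, where 12.1% were called higher and 12.3% lower, with a median of 0.01 against -0.04. By the brightest probe set of each of the 18010 genes, 3713 were called higher and 3203 lower in cauda than in caput. These numbers were 3659 and 3022 for corpus against caput, and 2823 and 2408 for cauda against corpus. The count higher in corpus than in caput depended on scaling: it fell to between 5 and 7 of 42 when array medians were subtracted, quantile normalization was repeated or cyclic loess was added. Under those scalings 12.2% to 16.2% of all probe sets were called higher, so the collagen share there was near that of all probe sets. The arrays of the segments did not overlap for 3 collagens higher and 1 lower in corpus than in caput (8.53% and 6.55% of probe sets), for 4 higher and 1 lower in cauda than in caput (8.7% and 6.88%), and for 1 higher and 0 lower in cauda than in corpus (7.36% and 6.93%). In all, 28 of the 42 collagens were called in at least 1 segment comparison (66.7%, against 50.8% of all probe sets) and 14 in none.

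**Figure D1:**
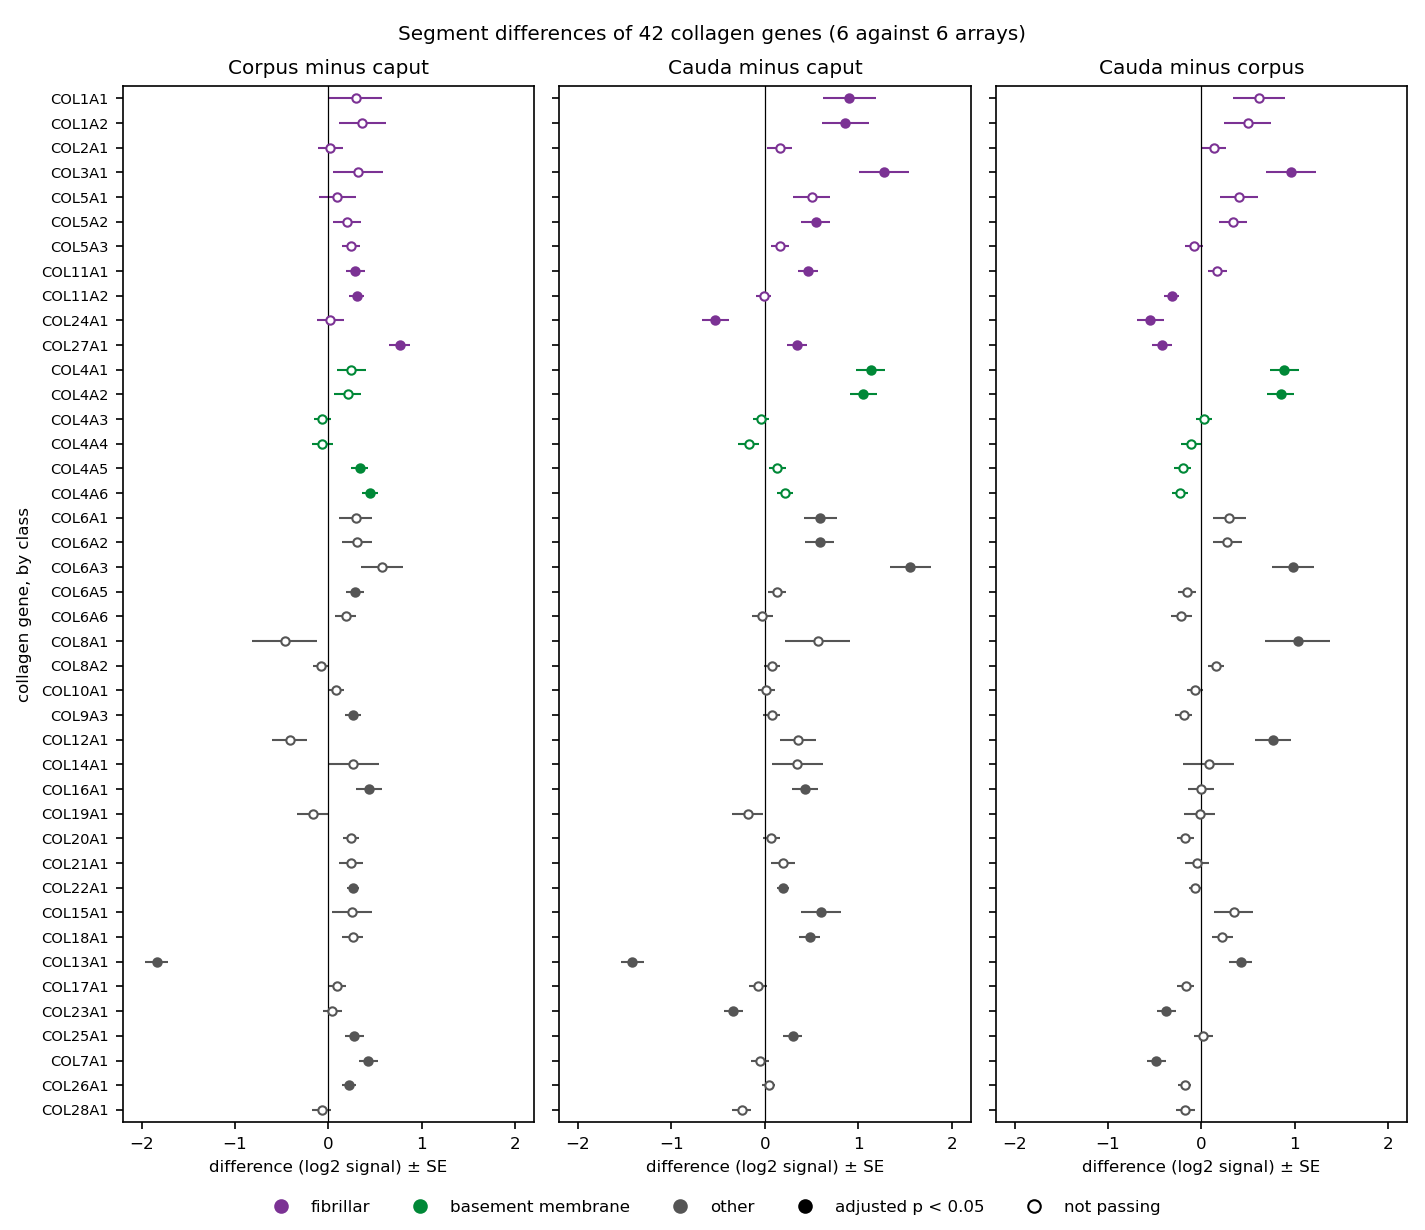
Log2 signal differences of the 42 collagens, by class, in panels for corpus minus caput, cauda minus caput and cauda minus corpus (6 arrays against 6), with error bars of 1 SE and filled points for adjusted p under 0.05. COL6A3 lies farthest to the higher side in cauda minus caput, at 1.55, and COL13A1 lies alone far on the lower side, at -1.84 in corpus minus caput and -1.42 in cauda minus caput.

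Among the fibrillar collagens, 6 of 11 rose from caput to cauda and 1 fell, where 17.2% and 15.1% of all probe sets did. The class median was 0.46, against 0.03 over all probe sets. Some of these calls were lost when arrays were left out, as given below. COL3A1, the chain of type III collagen, which is abundant in distensible organs, showed the largest rise of the class. Its 6 caput arrays ran from 8.37 to 9.35 with a median of 8.81, and its 6 cauda arrays ran from 9.38 to 10.72 with a median of 10.13. The lowest cauda array, array 3 of the medium-low group, lay just above the highest caput array, so the segments did not overlap. The difference was 1.28 (SE 0.269, adjusted p = 0.00177), or 2.42-fold. COL3A1 was also higher in cauda than in corpus, by 0.96 (adjusted p = 0.0167). Its corpus arrays ran from 8.40 to 10.08 and overlapped both other segments.

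COL1A1 and COL1A2 encode the chains of type I collagen, the main fibril-forming collagen of connective tissue. COL1A1 ran from 9.41 to 10.13 with a median of 9.59 in caput, from 9.14 to 10.82 with a median of 10.02 in corpus, and from 9.77 to 11.33 with a median of 10.60 in cauda. All 3 segments overlapped, and the cauda arrays were spread more widely than those of the caput (SD 0.611 against 0.287, n = 6 each). The cauda minus caput difference was 0.90 (SE 0.279, adjusted p = 0.0211). COL1A2 differed by 0.86 (SE 0.252, adjusted p = 0.0160), with cauda arrays from 9.25 to 10.72 and caput arrays from 8.79 to 9.42. Neither chain passed the test between cauda and corpus or between corpus and caput in the main fit. With a fixed block on the array number, but not a random one, both passed between cauda and corpus (adjusted p = 0.0190 and 0.0468). Without medium-low caput arrays 1 and 2 the cauda minus caput differences were 1.00 and 0.87 and missed the threshold (adjusted p = 0.0507 and 0.0583). The COL1A1 call was also lost without array 3 of the high cauda, or without array 1 or 2 of the medium-low cauda (adjusted p = 0.0568, 0.0535 and 0.0596).

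Type V collagen takes part in starting and sizing the type I fibrils. COL5A2, whose neighbour on the chromosome is COL3A1, was higher in cauda than in caput by 0.54 (SE 0.151, adjusted p = 0.0119). Its arrays ran from 6.89 to 7.34 in caput and from 7.29 to 7.90 in cauda. For COL5A1 the 2 probe sets gave different calls in the main fit. The brighter one differed by 0.50 (adjusted p = 0.0710), with caput arrays spread from 8.47 to 10.05. The dimmer one differed by 0.39 (adjusted p = 0.0440). With a random or a fixed block on the array number the brighter one passed too (adjusted p = 0.0267 and 0.000279). The type XI chains, known best from cartilage fibrils, took separate courses. COL11A1 was higher than in caput in both cauda (0.46, adjusted p = 0.00323) and corpus (0.29, adjusted p = 0.0465), the latter a call lost when any of 13 single arrays was left out (adjusted p up to 0.117). COL11A2 was highest in corpus, 0.30 above caput (adjusted p = 0.00999), and was 0.32 lower in cauda than in corpus (adjusted p = 0.00992). The cartilage collagen COL2A1 and COL5A3 passed no segment comparison.

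The remaining fibrillar genes, COL24A1 and COL27A1, encode minor fibril-forming chains that are expressed in developing skeletal tissue. COL27A1 ran from 7.48 to 8.32 in caput, from 8.35 to 8.89 in corpus and from 7.82 to 8.52 in cauda. Caput and corpus did not overlap, although the nearest arrays lay side by side. The corpus minus caput difference was 0.76 (SE 0.107, adjusted p = 8.37e-05), or 1.69-fold. From corpus to cauda it fell by 0.42 (adjusted p = 0.0101). It was 0.34 higher in cauda than in caput (adjusted p = 0.0231), a call lost without any of 4 single arrays (adjusted p up to 0.0643). COL24A1 was lower in cauda than in both other segments. It ran from 6.55 to 6.92 in caput, from 6.44 to 7.45 in corpus and from 5.97 to 6.68 in cauda, with a cauda minus caput difference of -0.53 (SE 0.145, adjusted p = 0.0104). Without medium-low caput arrays 1 and 2 that difference was -0.52 and missed the threshold (adjusted p = 0.0513), whereas the cauda minus corpus difference of -0.55 still passed (adjusted p = 0.0170).

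The 6 type IV genes lie in the genome as 3 neighbouring pairs, COL4A1 with COL4A2, COL4A3 with COL4A4, and COL4A5 with COL4A6. The pairs differed in the segment with the highest mean signal, but not every such difference passed the test. COL4A1 and COL4A2 form the trimer found in nearly all basement membranes, and both were highest in cauda. COL4A1 ran from 7.59 to 7.90 with a median of 7.74 in caput, from 7.73 to 8.31 with a median of 7.99 in corpus, and from 8.16 to 9.18 with a median of 8.99 in cauda. 5 cauda arrays lay at 8.85 or above, and array 3 of the medium-low group at 8.16. The cauda minus caput difference was 1.13 (SE 0.153, adjusted p = 4.21e-05), or 2.19-fold, with no overlap. COL4A1 also rose from corpus to cauda, by 0.89 (adjusted p = 0.000563).

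COL4A2 followed closely, from 7.57 to 8.01 in caput, 7.73 to 8.46 in corpus and 8.26 to 9.09 in cauda. Its cauda minus caput difference was 1.05 (SE 0.145, adjusted p = 4.86e-05), or 2.08-fold, again with no overlap. The lowest of its cauda arrays was the same array 3 of the medium-low group. Both genes passed the cauda minus caput test inside each fertility group. For COL4A1 the difference was 1.28 in high and 0.98 in medium-low bulls, and for COL4A2 it was 1.27 and 0.84.

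COL4A5 and COL4A6 are chains of a trimer found in basement membranes of smooth muscle and of some epithelia. Their mean signals were highest in corpus, but neither gene passed the test between cauda and corpus in the main fit. COL4A6 ran from 5.57 to 6.04 in caput, from 6.00 to 6.37 in corpus and from 5.88 to 6.34 in cauda. Its corpus minus caput difference was 0.44 (SE 0.0860, adjusted p = 0.00114). Neither comparison with cauda passed in the main fit. With a random block on the array number both did (adjusted p = 0.0466 against caput and 0.0457 against corpus). COL4A5 ran from 6.90 to 7.17 in caput and from 7.18 to 7.56 in corpus, without overlap but with touching ranges. It differed by 0.33 (SE 0.0883, adjusted p = 0.00941). Without medium-low caput arrays 1 and 2 it differed by 0.26 and missed the threshold (adjusted p = 0.0791). COL4A3 and COL4A4, chains best known from the glomerular basement membrane, passed no comparison, and their differences between segments lay between -0.17 and 0.03.

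**Figure D2:**
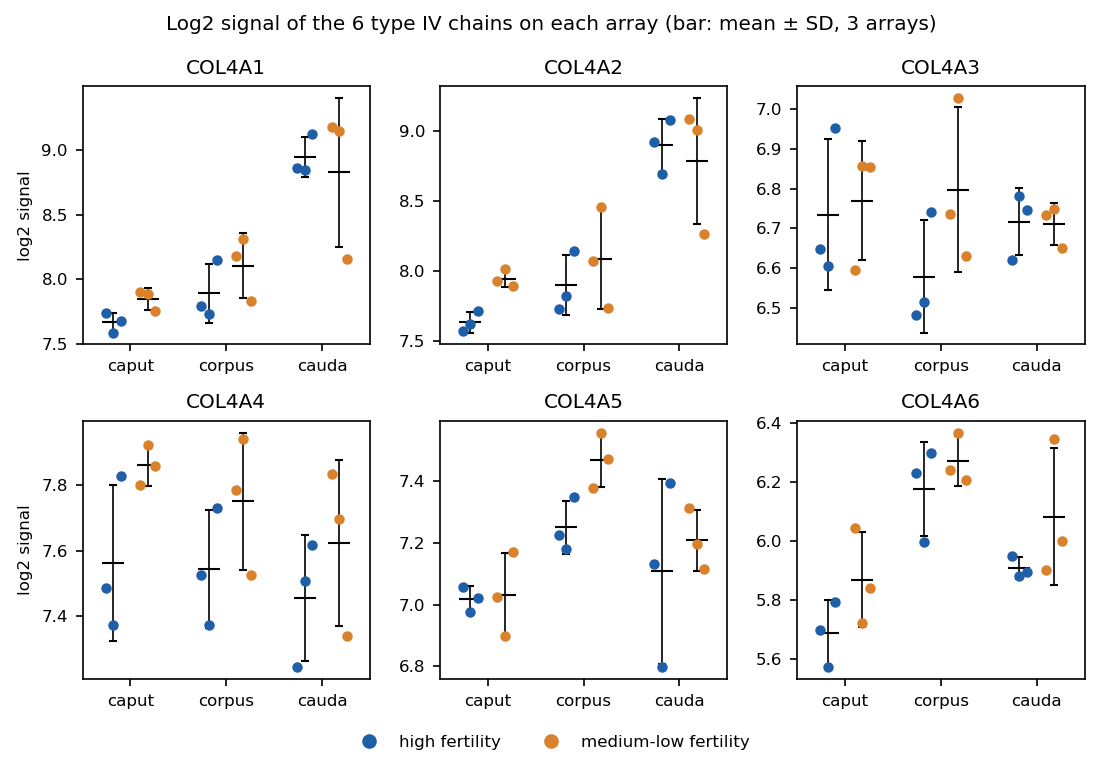
Log2 signals of COL4A1 to COL4A6 on each of the 18 arrays (points), by segment and fertility group, with the mean and SD of the 3 arrays of each group as bars. COL4A1 and COL4A2 stand high in cauda apart from 1 medium-low array, at 8.16 for COL4A1. COL4A5 and COL4A6 have their highest means in corpus, where their arrays overlap those of cauda. The segments overlap for COL4A3 and COL4A4.

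Type VI collagen forms beaded microfilaments that link cells to the surrounding fibrils, and its common form joins the COL6A1, COL6A2 and COL6A3 chains. All 3 rose from caput to cauda. COL6A3 rose the most of all 42 collagens. It ran from 8.03 to 8.60 with a median of 8.29 in caput, from 8.42 to 9.43 with a median of 8.79 in corpus, and from 9.14 to 10.30 with a median of 9.98 in cauda. Caput and cauda did not overlap, and the difference was 1.55 (SE 0.221, adjusted p = 6.64e-05), or 2.94-fold. From corpus to cauda COL6A3 rose by 0.98 (adjusted p = 0.00431), with array 2 of the high cauda (9.42) and array 3 of the medium-low cauda (9.14) inside the corpus range. It passed in high bulls (1.67) and in medium-low bulls (1.44).

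COL6A1 and COL6A2, neighbours in the genome, rose less, by 0.59 (SE 0.175, adjusted p = 0.0168) and 0.58 (SE 0.157, adjusted p = 0.00957). COL6A1 ran from 10.03 to 10.62 in caput and from 10.50 to 11.34 in cauda, and COL6A2 from 8.78 to 9.39 and from 9.21 to 9.99. Both genes overlapped between the segments. COL6A5 and COL6A6, which encode alternatives to the COL6A3 chain, did not take the same course. COL6A5 was higher in corpus than in caput by 0.28 (adjusted p = 0.0314), a call lost without medium-low caput arrays 1 and 2 although the difference was 0.29 (adjusted p = 0.0666), or without any of 5 single arrays, and COL6A6 passed no comparison.

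COL13A1 was the only collagen called lower in corpus than in caput, and it had the largest difference of any collagen in either direction. It encodes a transmembrane collagen at cell adhesion sites, known for its part in the neuromuscular junction. It ran from 8.75 to 9.40 with a median of 9.17 in caput, from 7.10 to 7.42 with a median of 7.27 in corpus, and from 7.51 to 8.31 with a median of 7.57 in cauda. The 3 segments did not overlap. Corpus minus caput was -1.84 (SE 0.126, adjusted p = 6.71e-08), a 3.58-fold difference, and cauda minus caput was -1.42 (adjusted p = 7.06e-07), or 2.67-fold. Cauda exceeded corpus by 0.42 (adjusted p = 0.0236), a call lost without array 1 of the high corpus or array 3 of the medium-low corpus (adjusted p = 0.0594 and 0.0531). The highest cauda array, at 8.31, was array 3 of the medium-low group. The falls from caput passed in each fertility group, at -1.86 and -1.60 in high and -1.82 and -1.24 in medium-low bulls.

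The other transmembrane collagens moved less. COL23A1 was lower in cauda than in caput by 0.34 on the log2 scale (-0.34, adjusted p = 0.0185) and lower than in corpus (-0.38, adjusted p = 0.0129). The caput call was lost without medium-low caput arrays 1 and 2 (-0.27, adjusted p = 0.120). COL25A1 was higher than in caput in corpus (0.28, adjusted p = 0.0458) and in cauda (0.30, adjusted p = 0.0339). These calls were lost when any of 12 and of 8 single arrays was left out (adjusted p up to 0.111 and 0.0880). COL17A1, a hemidesmosome component of basal epithelial cells, passed no comparison. COL7A1, which forms the anchoring fibrils that tie basement membranes to the tissue below, was highest in corpus. It was 0.43 above caput (SE 0.0997, adjusted p = 0.00436) and fell by 0.48 from corpus to cauda (adjusted p = 0.0024).

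**Figure D3:**
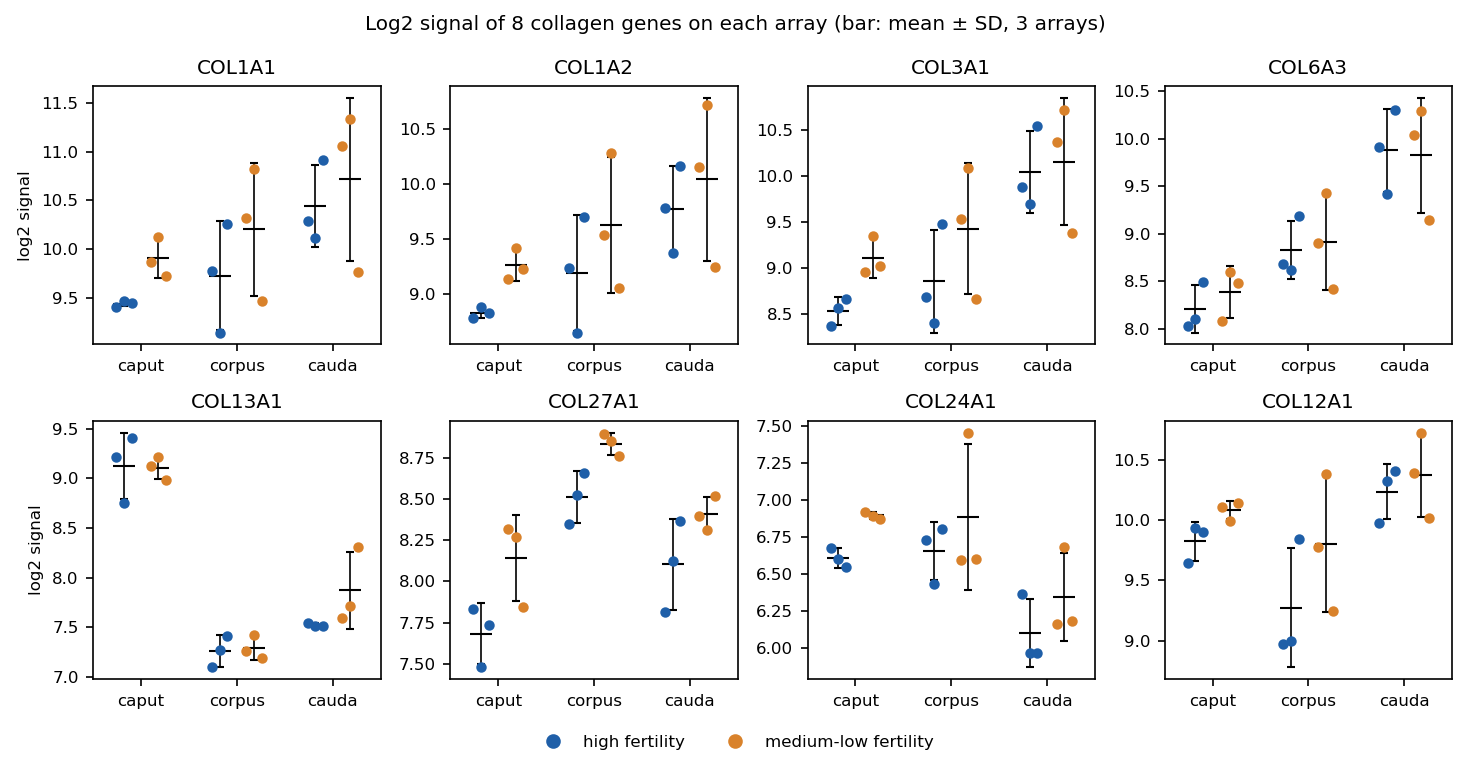
Log2 signals of COL1A1, COL1A2, COL3A1, COL6A3, COL13A1, COL27A1, COL24A1 and COL12A1 on each of the 18 arrays (points), by segment and fertility group, with the mean and SD of the 3 arrays of each group as bars. COL3A1 and COL6A3 stand highest in cauda, where medium-low array 3 is the lowest point (9.38 and 9.14), COL13A1 stands high in caput (8.75 to 9.40), and COL27A1 peaks in corpus.

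The multiplexins COL15A1 and COL18A1 lie at basement membranes, and COL18A1 is the source of endostatin, an inhibitor of vessel growth. COL18A1 was 0.48 higher in cauda than in caput (SE 0.112, adjusted p = 0.00376), with caput arrays from 8.66 to 9.38 and cauda arrays from 9.12 to 9.54. 1 caput array, array 1 of the medium-low group at 9.38, lay among the cauda arrays, and the other 5 lay at or below 8.91. COL15A1 differed by 0.60 (SE 0.211, adjusted p = 0.0415), with wide overlap (7.99 to 8.75 in caput, 8.46 to 9.51 in cauda). Its call was lost when any of 11 single arrays was left out, with adjusted p up to 0.108, and without medium-low caput arrays 1 and 2 (adjusted p = 0.127).

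FACIT collagens sit on the surface of fibrils. COL12A1 was higher in cauda than in corpus by 0.77 (SE 0.191, adjusted p = 0.00827), with corpus arrays from 8.97 to 10.38 and cauda arrays from 9.97 to 10.72, and passed neither comparison with caput. COL16A1 was 0.43 higher than in caput in both corpus (adjusted p = 0.0273) and cauda (adjusted p = 0.0291), and neither call held without medium-low caput arrays 1 and 2, where the differences were 0.40 and 0.40 (adjusted p = 0.106 and 0.117). These calls were also lost without any of 5 and of 6 single arrays (adjusted p up to 0.0718 and 0.0714). COL22A1, a collagen of tissue junctions, was higher than in caput in corpus (0.26, adjusted p = 0.00633) and cauda (0.19, adjusted p = 0.0342). The cauda call was lost without any of 7 single arrays (adjusted p up to 0.0918). COL9A3 was higher in corpus than in caput (0.26, adjusted p = 0.0329), a call lost without any of 6 single arrays (adjusted p up to 0.0876). COL14A1, COL19A1, COL20A1 and COL21A1 passed no comparison.

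COL8A1, a short-chain network collagen of vessel walls, was higher in cauda than in corpus by 1.03 (SE 0.349, adjusted p = 0.0432). Its corpus arrays ran from 6.94 to 7.40 and its cauda arrays from 7.35 to 8.67. In caput it ranged from 6.70 to 9.26, and the array at 9.26 was array 1 of the medium-low group. The COL8A1 call was lost when any of 11 single arrays was left out, with adjusted p up to 0.0972. COL26A1 was 0.22 higher in corpus than in caput (adjusted p = 0.0312), a call lost without any of 6 single arrays (adjusted p up to 0.0837). COL8A2, COL10A1 and COL28A1 passed no comparison.

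Leaving out medium-low caput arrays 1 and 2 removed 7 of the 19 cauda minus caput calls (COL1A1, COL1A2, COL15A1, COL16A1, COL22A1, COL23A1 and COL24A1) and added 2 (COL5A1 and COL8A1). It removed 4 of the 13 corpus minus caput calls (COL4A5, COL6A5, COL16A1 and COL26A1) and added 3 (COL17A1, COL18A1 and COL21A1). The fold changes of the lost calls were 0.958 to 1.07 times and 0.953 to 1.01 times those with the arrays kept, so the calls were lost with differences of about the same size. The differences of COL3A1, COL4A1, COL6A3 and COL13A1 between cauda and caput became 1.32, 1.18, 1.51 and -1.36 and all passed.

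The enzymes that finish collagens and other gene lists were followed in the same fit. Their counts stand against the shares of all probe sets called. These were 17.2% higher and 15.1% lower in cauda than in caput. They were 19.5% and 13.7% in corpus against caput, and 12.1% and 12.3% in cauda against corpus. All 5 lysyl oxidases, which oxidise lysines so that collagen and elastin cross-link, were higher in cauda than in caput, and 4 of them were higher in cauda than in corpus. LOX was higher in cauda than in caput by 2.47 (SE 0.170, adjusted p = 5.63e-08) and LOXL4 by 1.90 (SE 0.105, adjusted p = 6.06e-09). From caput to corpus 1 rose (LOXL2, 0.41) and 1 fell (LOXL3, -1.05). The mean signal of the 5 enzymes lay between 8.96 and 9.54 in the cauda arrays and between 7.69 and 8.54 in all other arrays.

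The intracellular machinery moved both ways. Of 28 measured genes for collagen hydroxylation, folding and procollagen trimming, 9 were higher and 6 lower in cauda than in caput, and 5 were higher and 9 lower in corpus than in caput. From corpus to cauda 9 were higher and none was lower. P4HA3 and P4HA1 encode alternative catalytic subunits of prolyl 4-hydroxylase, which stabilises the triple helix. P4HA3 was 1.05 higher in cauda than in caput (adjusted p = 0.000258). P4HA1 fell by 1.12 from caput to corpus (adjusted p = 1.28e-05) and was 0.74 higher in cauda than in corpus (adjusted p = 0.00063). FKBP14, an endoplasmic reticulum prolyl isomerase, was lower than in caput in both corpus (-1.11) and cauda (-1.23), and so was P3H4 (-1.11 and -0.81), a partner of the collagen lysyl and prolyl hydroxylases.

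Among 12 collagen receptors, 3 were higher and 2 lower in cauda than in caput, where 17.2% and 15.1% of all probe sets were. Counts this small are not read as a result about the receptors as a list. ITGA1, the integrin chain that binds type IV collagen, was 2.22 higher in cauda than in caput (SE 0.239, adjusted p = 4.44e-06) and differed by 0.00 between corpus and caput. DDR2, a receptor kinase for fibrillar collagens, was 1.23 higher in cauda (adjusted p = 9.48e-05). ITGA2, which favours fibrillar collagen, was lower in cauda than in caput (-0.81, adjusted p = 0.0124). So was ADGRG1 (-1.05, adjusted p = 6.56e-06), an adhesion receptor that binds type III collagen.

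Of 18 measured basement membrane partners, 9 were higher and 3 lower in cauda than in caput, 5 were higher and 3 lower in corpus than in caput, and 7 were higher and 5 lower in cauda than in corpus. NID2, a nidogen that links laminin and type IV networks, was 1.74 higher in cauda than in caput (adjusted p = 7.92e-06) and the laminin chain LAMB1 1.68 higher (adjusted p = 1.33e-05). LAMB2, the alternative beta chain, was instead highest in corpus, 1.70 above caput (adjusted p = 1.21e-06). FREM1, a protein of epithelial basement membranes, was lower in cauda than in caput (-2.94, adjusted p = 1.74e-07).

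Smooth muscle, endothelial and part of the fibroblast markers were higher in cauda than in caput. All 11 measured smooth muscle markers were higher in cauda than in caput, with a median of 1.44, and none was called between corpus and caput. None of the 11 overlapped between cauda and caput, where 8.7% of all probe sets lay higher without overlap. Their mean signal lay between 10.02 and 10.49 in caput, 10.09 and 10.72 in corpus, and 11.08 and 11.98 in cauda. The lowest cauda value, 11.08, was that of array 3 of the medium-low group, where COL4A1, COL4A2, COL3A1 and COL6A3 were lowest too. All 11 endothelial markers were higher in cauda than in caput (median 0.72), and 8 of 11 were already higher in corpus. Of 14 fibroblast markers other than collagens, 7 were higher and 1 lower in cauda than in caput (median 0.41). Their part in the collagen differences was not tested.

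Of 9 epithelial markers, 2 were higher and 3 lower in cauda than in caput, and 4 were higher and 2 lower in corpus than in caput. Of 7 basal cell markers, 6 were higher in corpus than in caput and 3 in cauda than in caput. Of 7 macrophage markers 1 was higher and 1 lower in cauda than in caput, and of 8 adipocyte markers 2 were higher and 2 lower. Of all probe sets 17.2% were called higher and 15.1% lower there. The small epithelial, macrophage and adipocyte counts are not read as differences from those shares. Of 10 germ cell markers, 5 were lower in cauda and in corpus than in caput, and their mean reached 8.23 in array 2 of the medium-low corpus against 6.10 to 6.65 in the other corpus arrays. In caput the germ cell mean was 6.40 in medium-low array 1 and 8.62 in medium-low arrays 2 and 3. Medium-low corpus array 2 also had the highest mean of the fibrillar collagens among corpus arrays, at 8.52. It was highest there for the basement membrane collagens (7.61) and fibroblast markers (9.43) too, but not for smooth muscle or epithelial markers. What sets that array apart was not tested.

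Without medium-low caput arrays 1 and 2, cauda minus caput counts, higher and lower, were 5 and 0 of the lysyl oxidases, 8 and 7 of the processing genes, 3 and 1 of the receptors and 7 and 3 of the basement membrane partners. ITGA2 was the receptor whose lower call was lost (-0.35, adjusted p = 0.167). Smooth muscle markers kept a count of 11 and 0, and the counts were 9 and 0 for endothelial, 6 and 0 for fibroblast, 3 and 4 for epithelial, 4 and 0 for basal cell, 1 and 0 for macrophage, 1 and 2 for adipocyte and 0 and 8 for germ cell markers. For corpus minus caput they were 1 and 1 of the lysyl oxidases, 3 and 10 of the processing genes, 1 and 2 of the receptors and 5 and 3 of the basement membrane partners. The marker lists had 0 and 0 smooth muscle, 7 and 0 endothelial, 3 and 0 fibroblast, 5 and 2 epithelial, 7 and 0 basal cell, 0 and 0 macrophage, 0 and 1 adipocyte and 0 and 9 germ cell.

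**Figure D4:**
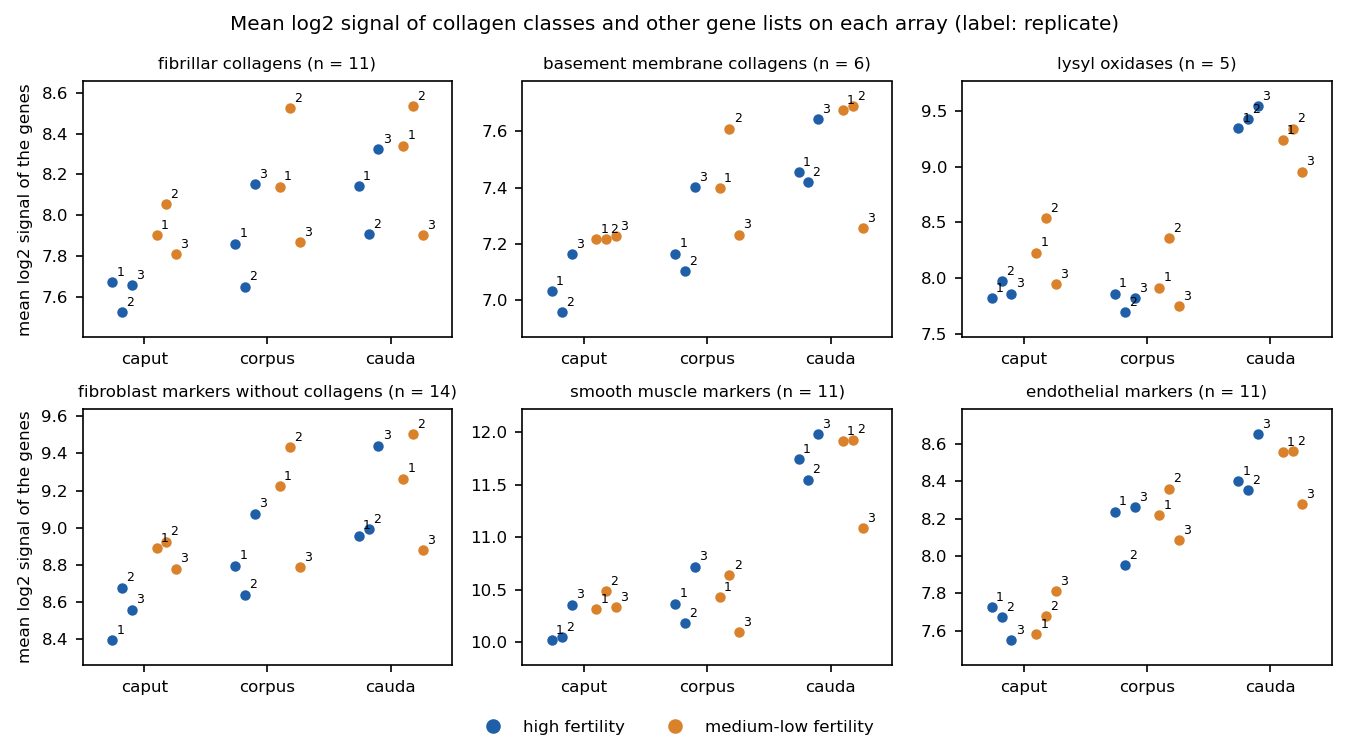
Mean log2 signal of the fibrillar and basement membrane collagens, lysyl oxidases, and fibroblast, smooth muscle and endothelial markers on each array (points labelled by array number), by segment and fertility group. Smooth muscle markers and lysyl oxidases step up in cauda, where the lowest smooth muscle mean is 11.08, and endothelial markers rise from caput through corpus to cauda.

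The segment pattern was then read within each fertility group. In high fertility bulls 9 collagens were higher and 2 lower in cauda than in caput, where 22.7% of all probe sets were called, and in medium-low bulls 3 were higher and 2 lower, where 20.5% were called. Between corpus and caput 5 were higher and 1 lower in high bulls (19.6% of probe sets called) and 4 higher and 1 lower in medium-low bulls (17.7%). Between cauda and corpus the counts were 5 and 1 in high bulls (14.5%) and 2 and 1 in medium-low bulls (10.1%). No collagen passed the test of whether the fertility difference varied between segments. The lowest adjusted p was 0.588, none of the 42 had an unadjusted p under 0.05 (8.79% of probe sets did), and 0.00374% of probe sets were called.

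Between the fertility groups, no collagen passed the test in any segment or over the segments. In caput 0 of 42 were called, where 0.213% of all probe sets were, and the lowest adjusted p was 0.0733 (COL22A1). In corpus 0 of 42 were called (0.00374% of probe sets), and in cauda 0 of 42 (0.0112%), with lowest adjusted p values of 1.00 and 0.870. At an unadjusted p under 0.05 there were 11 collagens in caput (26.2%, against 20.8% of all probe sets), 3 in corpus (7.14% against 4.41%) and 0 in cauda (against 5.81%). By the brightest probe set of each of the 18010 genes, 4370 reached it in caput, 701 in corpus and 948 in cauda. Over the mean of the segments 0 were called (0.00374% of probe sets), and 6 had an unadjusted p under 0.05 (14.3%, against 9.25% of probe sets). There the medium-low mean was the higher one for 40 of 42, against 53.6% of all probe sets.

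Most differences nevertheless had the same sign. The medium-low mean was the higher one for 38 of 42 collagens in caput, 42 of 42 in corpus and 32 of 42 in cauda, where 53.5%, 49.5% and 53.2% of all probe sets had that sign. The median collagen differences were 0.27, 0.22 and 0.11, against 0.02, -0.00 and 0.01 over all probe sets. The 3 medium-low arrays lay above the 3 high arrays without overlap for 16 collagens in caput, 7 in corpus and 2 in cauda, where 8.93%, 5.67% and 6.53% of probe sets did. No collagen lay below without overlap, where 9.62%, 5.68% and 5.06% of probe sets did. Collagens share arrays and bulls, so these counts are not independent, and no single difference passed the test.

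In caput these values held when any 1 array was left out, with a median of 0.23 to 0.30 and 37 to 39 of 42 differences positive. Without both medium-low caput arrays 1 and 2, which leaves array 3 alone in that group, the median was 0.15 and 33 of 42 were positive. In corpus and cauda single arrays mattered more. The corpus median fell from 0.22 to 0.11, with 37 of 42 positive, without array 2 of the medium-low group, and to 0.13, with 39 positive, without array 2 of the high group. The cauda median fell from 0.11 to 0.019 without array 2 of either group, with 22 of 42 positive without that of the high group and 23 without that of the medium-low group, and it rose to 0.20 with 39 positive without array 3 of the medium-low group. The largest caput differences were those of COL5A1, COL19A1 and COL3A1. For COL5A1 the medium-low arrays lay at 9.57, 10.05 and 9.01, high arrays 1 and 2 at 8.65 and 8.47 and high array 3 just under 9.01, a difference of 0.83 (SE 0.284, adjusted p = 0.112). The medium-low arrays lay above the high arrays, but array 3 only just. COL19A1, a rare FACIT collagen, read 6.56, 6.10 and 5.15 in medium-low caput and 5.34, 5.04 and 5.04 in high caput, a difference of 0.80 (SE 0.235, adjusted p = 0.0786). Only arrays 1 and 2 were high, and in corpus and cauda all arrays of both groups lay between 5.26 and 5.49. COL3A1 differed by 0.58 (adjusted p = 0.415).

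Without array 3 of the medium-low caput, 7 collagens passed in caput. They were COL5A1 (1.10, adjusted p = 0.0148), COL19A1 (1.19, adjusted p = 1.59e-05), COL17A1, COL22A1, COL27A1 and COL28A1, all higher in medium-low, and COL2A1, which was lower (-0.64). The remaining medium-low caput arrays in that setting were arrays 1 and 2. COL22A1 passed limma's moderated test there at an unadjusted p of 0.00508 (adjusted p = 0.0330), so many other probe sets passed too. These 7 calls are therefore not read as particular to the collagens. In corpus the largest differences were those of COL3A1 (0.57), COL14A1 (0.57) and COL12A1 (0.53), and in cauda those of COL13A1 (0.35), COL27A1 (0.31) and COL1A1 (0.28). None of these passed.

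**Figure D5:**
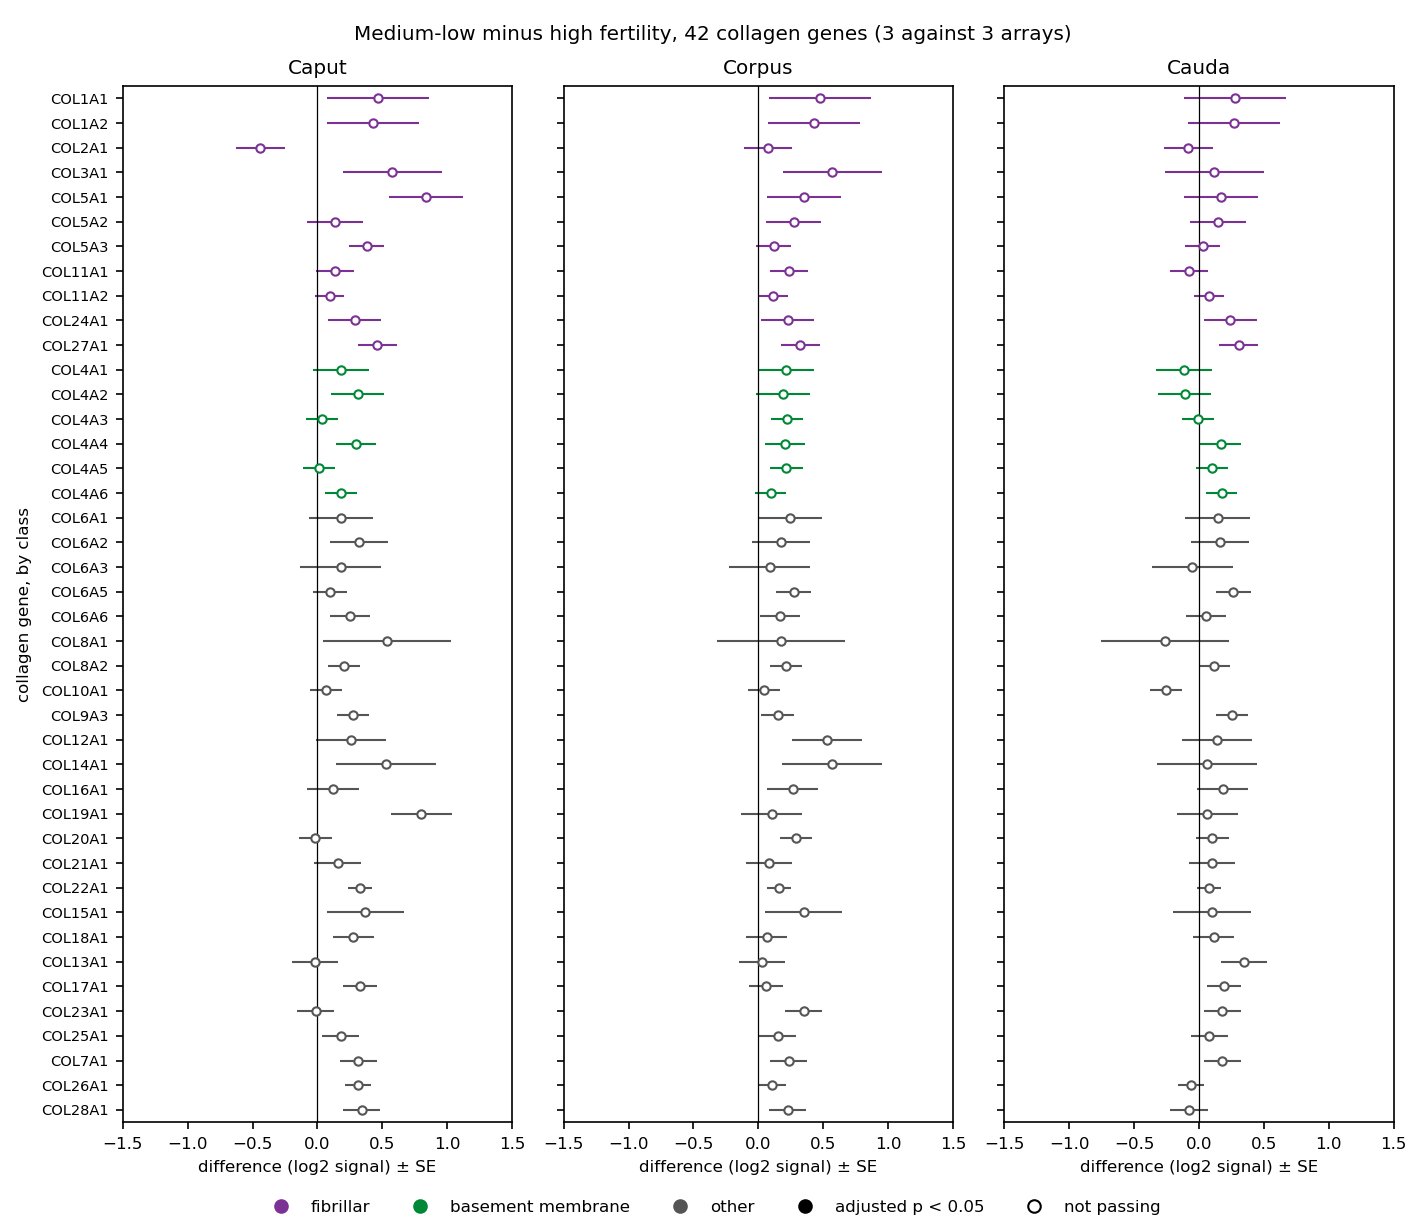
Log2 signal difference of each collagen, medium-low minus high fertility, in caput, corpus and cauda (3 arrays against 3), with error bars of 1 SE and open points for genes that did not pass the test. Most points lie above 0, including all 42 in corpus, and every point is open.

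No member of any gene list was called between the fertility groups. In caput the fibroblast markers had a median medium-low minus high difference of 0.17, with 10 of 14 positive. The highest, CD34 at 2.42 (adjusted p = 0.0799), was named after its value was seen. The medians were 0.50 for macrophage markers (6 of 7 positive), 0.34 for basal cell markers (6 of 7), 0.37 for germ cell markers (8 of 10), 0.17 for smooth muscle markers (11 of 11) and 0.10 for endothelial markers (6 of 11). They were -0.22 for epithelial markers (2 of 9 positive) and -0.01 for adipocyte markers (4 of 8). The part of cell type makeup in the collagen differences was not tested.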

How the data were processed

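Total RNA (200 ng) from each tissue piece was amplified and biotin-labelled with a whole-transcript kit and hybridised to 1-colour Affymetrix arrays, per the labels' protocols. The values used are the log2 signals the authors deposited, 1 for each probe set and array. The submitters' processing notes list Affymetrix Expression Console, RMA and Partek 6.5 without their roles. Probe sets were named from the platform annotation: 18457 name 1 gene and 688 name several, and the latter name no member. Of the 42 collagens, all were found by symbol in the RefSeq gene table ARS-UCD2.0, which was used only for which genes neighbour each other. The genome build of the annotation is not given in the sources used here.

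The 18 arrays were fitted with limma 3.58.1 in R 4.3.3 as 6 group means, with moderated tests (eBayes) and Benjamini-Hochberg adjustment over all 26773 probe sets, at a threshold of 0.05. The fertility difference over segments was fitted on 6 means, 1 for each fertility group and array number. This takes a number as 1 bull, which the labels do not say. The 18 arrays with a random block on that number gave 0 calls too. The fit was tested on simulated data with independent noise for each array. Those data held no shared bulls or outlying arrays, so the test does not show how the fit handles them. No values were imputed and no probe set was filtered out of the main fit. The number of arrays limits the precision.

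The collagens, gene lists and comparisons were chosen with earlier results of these data known. Values are given in full for the type I, III, IV, V, VI, XV and XVIII chains named above, for called collagens whose segments did not overlap (up to 5 per direction), and for the 3 largest fertility differences per segment where none passed. From other lists up to 4 called members with the largest difference were named. Alternatives were other scalings (array medians, quantile, cyclic loess), dropping the dimmest 25% of probe sets, array weights, another prior, the mean of a gene's probe sets, each segment alone, a replicate block, and leaving out arrays.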

Additional observations from a re-analysis of the deposited data

Results flagged for a closer look

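In each segment the 6 arrays of each collagen were searched for a highest or lowest array whose gap to the next exceeded Dixon's critical share of the whole range. This gave 6 of 126 sets of 6 arrays, and chance alone gives about 1 in 20. All 6 are medium-low arrays. In cauda, COL4A1 was lowest in medium-low array 3, at 8.16, where the others lay between 8.85 and 9.18. In the same array COL13A1 was highest, at 8.31 against 7.51 to 7.71. Medium-low cauda array 2 was highest for COL4A6 (6.34 against 5.88 to 6.00) and for COL25A1 (7.20 against 6.67 to 6.86). In corpus, COL24A1 was highest in medium-low array 2, at 7.45 against 6.44 to 6.80. In caput, COL18A1 was highest in medium-low array 1, at 9.38 against 8.66 to 8.91.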

How the results depend on the processing

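Of the 44 segment calls, 26 passed in every alternative run, among them COL3A1, COL4A1, COL4A2 and COL6A3 in cauda against caput and against corpus, and COL13A1 against caput. The other 18 were lost in at least 1. Collagens higher in corpus than in caput numbered 12, but 6 with array medians subtracted, 7 with quantile normalization and 5 with cyclic loess, and the cause was not tested. Those lower numbered 1, but 2 with array weights. Without medium-low caput arrays 1 and 2, with or without medium-low cauda array 3, 1 rather than 3 was lower in cauda than in caput. Array weights gave 7 fertility calls in caput rather than 0, and 1 rather than 0 for the interaction (COL19A1). The lowest weight was that of medium-low caput array 3 (0.246), the array whose omission also gave 7 calls. COL2A1 passed with weights at an unadjusted p of 0.00322 (adjusted p = 0.0234), so many other probe sets passed too. The 7 calls are not read as particular to the collagens.

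Within medium-low bulls, corpus minus caput calls numbered 5, but 3, 3 and 2 under the 3 scalings, and 2 and 3 without caput arrays 1 and 2 and then also without cauda array 3. Cauda minus caput calls there numbered 5, but 8 with array weights and 3 without caput arrays 1 and 2. Cauda minus corpus calls there numbered 3, but 5 without dim probe sets (38 collagens tested), 5 with array weights and 1 without caput arrays 1 and 2.

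Leaving out 1 array at a time, collagens higher in corpus than in caput ranged from 6 (without high corpus array 3; 7 without medium-low corpus array 2) to 13 and those lower from 1 to 2. For cauda against caput they ranged from 10 (without high cauda array 3) to 17 and from 2 to 5 (without medium-low caput array 3), and for cauda against corpus from 5 to 9 and from 5 to 6. Fertility calls ranged from 0 to 7 in caput (7 without medium-low caput array 3) and stayed at 0 in corpus and in cauda, and interaction calls from 0 to 1. In high bulls the calls ranged from 2 to 6 for corpus against caput, 5 to 13 for cauda against caput and 2 to 7 for cauda against corpus, and in medium-low bulls from 2 to 6, 4 to 10 and 0 to 6. The fertility difference of COL1A1 in cauda, never called, ranged from -0.029 without medium-low cauda array 2 to 0.75 without medium-low cauda array 3.

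Same-numbered arrays deviated together in the high group (correlations 0.154 to 0.270 for all 9 pairs). In the medium-low group 8 of 9 pairs lay above 0.1 (0.0706 to 0.550). Arrays of different number correlated at -0.164 to -0.0365 in the high group and at -0.390 to 0.114 in the medium-low group. The main fit took no pairs, because not every pair passed 0.1 and the labels do not tie a number to a bull. Its counts therefore leave the likeness of same-numbered arrays out of account. A random replicate block (consensus correlation 0.156) gave 7 higher in cauda than in corpus, as without it, and a fixed replicate block 14. The fixed replicate block gave 2 lower in corpus than in caput. In high bulls the replicate block, random and fixed, gave 17 and 18 for cauda against caput rather than 11, and the fixed block 11 for cauda against corpus rather than 6. In medium-low bulls it gave 9 and 9 for corpus against caput, 8 and 15 for cauda against caput, and 7 and 7 for cauda against corpus. No segment call was lost under the block. Over both fertility groups the random block added COL5A3, COL6A3 and COL20A1 as higher in corpus than in caput. It added COL4A6 and COL5A1 as higher in cauda than in caput, and COL4A6 as lower in cauda than in corpus. The fixed block added COL6A1, COL6A2, COL6A3, COL18A1 and COL21A1 in corpus and COL5A1 and COL14A1 in cauda, all higher than in caput. From corpus to cauda it added COL1A1, COL1A2, COL5A1, COL5A2, COL6A1, COL6A2 and COL15A1 as higher. The share of all probe sets called is not given for the block, for array weights, for dropping dim probe sets or for leaving out arrays. Nor is it given for the scalings within a fertility group. Those counts therefore do not show whether the collagens changed more than other genes.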
